A study of Homo sapiens with 2 samples.

Results

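The genes examined were 10 long noncoding hosts of microRNAs linked to epithelial-to-mesenchymal transition (EMT): MIR200CHG, MIR205HG, MIR100HG, MIR31HG, MIR22HG, MIR17HG, MIR34AHG, MIR193BHG, MIR210HG and DLEU2. They were chosen by name, and each of the 10 symbols matched 1 of the 58735 Ensembl gene identifiers of the count tables through GENCODE release 44. The RNA was polyadenylated RNA of MCF10a-Snail-ER cells, a non-tumorigenic human mammary epithelial line that stably carries the repressor Snail fused to the estrogen receptor. Both libraries came from cells given 100 nM tamoxifen for 1 day, which activates the fusion and starts EMT. One library was Oxford Nanopore direct RNA, in which native RNA strands are read from their poly(A) end, and the other was an Illumina TruSeq stranded mRNA library, made from fragmented and amplified cDNA. The series describes the RNA samples as matched. Each platform had 1 library, and no untreated cells were sequenced, so the values give levels after induction and a comparison of the 2 libraries, not a response to Snail, and all intervals and tests cover counting error only.

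A microRNA is cut as a hairpin from a longer primary transcript by DROSHA and DGCR8, exported by XPO5, trimmed by DICER1 and loaded onto an Argonaute protein, where its seed, bases 2 to 8, pairs with target mRNAs. Its host gene is the transcription unit that carries the hairpin in an exon or an intron, and the spliced, polyadenylated host RNA is what these libraries can count. In epithelial cells the miR-200 family and miR-205 hold back ZEB1 and ZEB2, the repressors that maintain a mesenchymal state, and ZEB1 in turn represses miR-200 genes. The mature microRNAs themselves are too short, and lack the poly(A) tail, to be measured by either kit.

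The 10 hosts carry 20 annotated hairpins of the list, all 20 on the strand of their host, and all 20 were matched in RefSeq (GRCh38.p14). The main arms that bear on the groups below are shown 5′ to 3′ with the seed in capitals, so that shared targeting can be read from them. The miR-200c and miR-141 seeds, both from MIR200CHG, differ by U4C, counted from the 5′ end of the mature strand with the miR-200c base first. The miR-17 and miR-20a arms of MIR17HG have the same seed, and so do the miR-15a and miR-16 arms of DLEU2, while the 3 microRNAs of MIR100HG have 3 different seeds.
miR-200c-3p: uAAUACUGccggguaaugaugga
miR-141-3p: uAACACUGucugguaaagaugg
miR-205-5p: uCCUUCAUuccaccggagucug
miR-100-5p: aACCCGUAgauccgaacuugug
let-7a-5p: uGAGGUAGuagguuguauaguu
miR-125b-5p: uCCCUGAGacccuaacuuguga
miR-31-5p: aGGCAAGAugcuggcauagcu
miR-22-3p: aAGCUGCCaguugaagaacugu
miR-17-5p: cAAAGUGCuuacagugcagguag
miR-20a-5p: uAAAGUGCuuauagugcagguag
miR-34a-5p: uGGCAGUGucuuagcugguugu
miR-193b-3p: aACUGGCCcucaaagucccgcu
miR-210-3p: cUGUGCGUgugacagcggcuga
miR-15a-5p: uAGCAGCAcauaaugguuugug
miR-16-5p: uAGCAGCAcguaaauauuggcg

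The total was 403235 counts for Nanopore and 191741714 for Illumina. Scaled to counts per 1000000 (CPM), each Nanopore count was worth 2.48 and each Illumina count 0.00522, and the value of 3 counts, taken as the limit that a count of 0 allows, was 7.44 and 0.0156 CPM. The labelled cell type was checked with markers: all 10 genes of a basal mammary list were detected by each platform, with a summed level of 3894 CPM by Nanopore and 4317 CPM by Illumina, led per length by KRT5 and KRT14. Of 8 luminal markers 4 were detected by Nanopore and 6 by Illumina, with summed levels of 682.0 and 549.3 CPM. Nearly all of that was the keratins KRT8, at 389.4 and 209.05 CPM, and KRT18, at 280.2 and 321.8 CPM, while PGR and ELF5 were at 0 in both tables. Summed levels by Nanopore and Illumina were 27.3 and 37.3 CPM for 7 fibroblast markers, mostly DCN, 32.2 and 45.2 CPM for 6 blood markers, mostly CD68, and 2.48 and 6.61 CPM for 5 endothelial markers. The blood-cell gene PTPRC had 0 Nanopore and 2 Illumina counts.

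All 10 hosts had Illumina counts and 6 had at least 1 Nanopore count. Together they held 68 Nanopore counts, 0.0169% of that library (95% Wilson interval 0.0133 to 0.0214%), and 24044 Illumina counts, 0.0125% (0.0124 to 0.0127%). MIR205HG alone made up 58.8% of the host counts by Nanopore (47.0 to 69.7%) and 51.6% by Illumina (51.0 to 52.2%), so a single epithelial host accounted for most of the signal in each library. Without it the shares were 0.00694% and 0.00607%. Among all lncRNA genes, 17.8% had a Nanopore count and 40.1% an Illumina count.

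**Figure D1:**
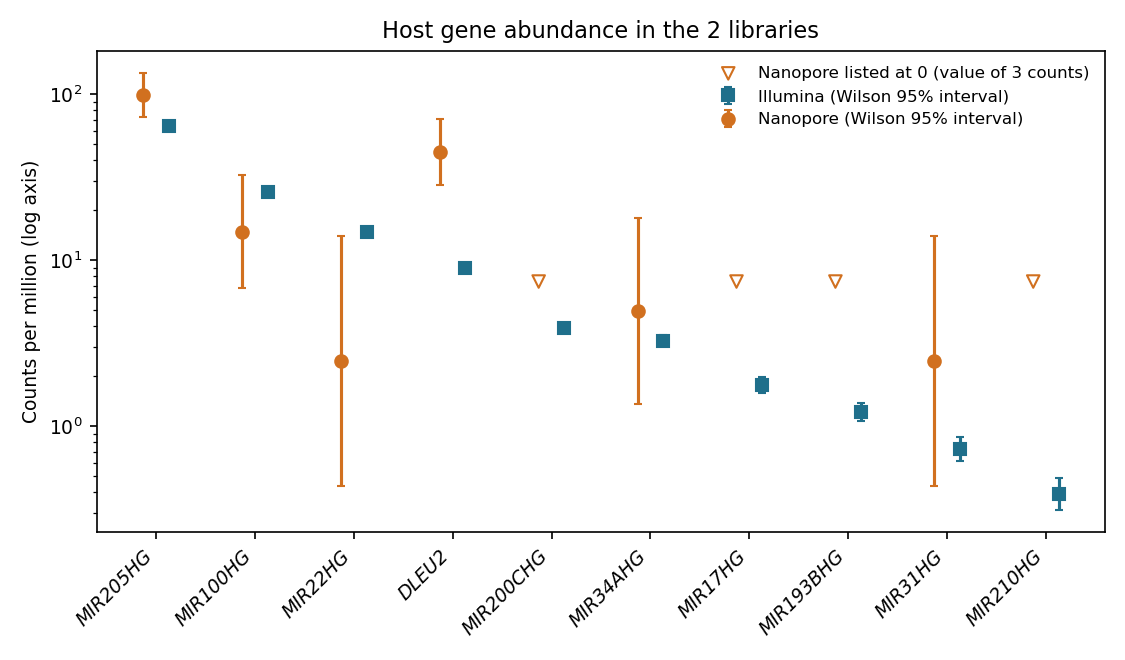
Abundance of the 10 host genes in CPM (log axis) in the Nanopore library (circles) and the Illumina library (squares), with 95% Wilson intervals. Each point is 1 library; open triangles mark the 4 genes listed at 0 by Nanopore, drawn at the value of 3 counts, 7.44 CPM. MIR205HG is highest in both libraries, and the 2 intervals of a host do not overlap for MIR205HG, MIR22HG and DLEU2.

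Levels of different genes were compared per length, as Illumina counts divided by length and scaled to 1000000 per library (TPM). With the union of all annotated exons as the length, MIR205HG was at 49.6 TPM (interval from counting error 48.7 to 50.5), MIR200CHG at 28.6 TPM (26.7 to 30.8) and MIR22HG at 12.8 TPM (12.4 to 13.3). These 3 hosts lay above 98.3%, 96.9% and 93.9% of the lncRNA genes with an Illumina count. A wide step followed, to MIR100HG at 2.31 TPM and DLEU2 at 1.90 TPM, then MIR34AHG at 1.02, MIR193BHG at 0.544, MIR210HG at 0.456, MIR17HG at 0.372 and MIR31HG at 0.119 TPM. The intervals of MIR193BHG and MIR210HG overlapped, as did those of MIR210HG and MIR17HG, so their order is not set beyond counting error. The order depended on the length used: with the mean length of annotated transcripts, MIR100HG moved to second place at 16.9 TPM, MIR200CHG was at 12.7, MIR22HG at 10.2 and DLEU2 at 7.87 TPM, and MIR34AHG and MIR193BHG, at 1.69 and 1.46 TPM, had overlapping intervals. MIR200CHG has 370 bases under either length, so its own value changed only through the lengths of the other genes, over which TPM is scaled. MIR205HG was first and MIR31HG last under either length. With mean transcript length the intervals of MIR210HG and MIR31HG, at 0.438 and 0.362 TPM, overlapped, so the last place is not set beyond counting error there. Release 44 may list exons that the authors' annotation did not have, which would bear on every value per length.

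To compare the libraries, a two-sided exact conditional binomial test was applied to every gene whose mean over both reached 5 CPM, 12414 in all, and p-values were adjusted over all of them by the Benjamini-Hochberg method. The test speaks of these 2 libraries and not of the platforms at large. Only 4 hosts passed that filter: MIR205HG, MIR100HG, MIR22HG and DLEU2. Of these 4, 2 were higher by Nanopore at an adjusted p under 0.05, 0 were higher by Illumina and 2 did not pass; over all tested genes 20.2% passed with the higher level by Nanopore and 27.2% with the higher level by Illumina. Among the 1363 tested lncRNA genes, 73.2% passed in the Nanopore direction and 2.64% in the other. The median log2 ratio of Nanopore over Illumina (CPM + 1) was −0.61 over the 10 hosts and −0.07 over the 4 tested, beside −0.42 for all tested genes and 2.95 for tested lncRNA genes. With the Illumina counts divided by union exonic length, 5 hosts were tested, of which 3 were higher by Nanopore (background 32.4%) and 1 was higher by Illumina (background 12.8%). With mean transcript length 5 were tested, with 1 higher on each platform (background 24.6% for Nanopore and 16.9% for Illumina). The filter could pass any gene, host or not, through the library in which it was high, so no count, share or median here is support for a shared direction. The other 6 hosts were too rare for a test, and their expected Nanopore counts at their Illumina share were 1.58 or fewer.

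The epithelial hosts are those of miR-205 and of the miR-200c/141 pair. MIR205HG (ENSG00000230937, chromosome 1, 209428817 to 209432848, plus strand, hg38), a marker of basal mammary epithelium, had 40 Nanopore counts, 99.2 CPM (72.9 to 135.1), and 12403 Illumina counts, 64.7 CPM (63.6 to 65.8). It was the most abundant host on both platforms. Nanopore over Illumina was 1.53 (exact 95% interval 1.10 to 2.09), with an adjusted p of 0.0309 in the exact test, adjusted over all tested genes. The call was lost when the Illumina counts were divided by mean transcript length (ratio 1.27, interval 0.904 to 1.72, adjusted p = 0.289) and when genes were not filtered (adjusted p = 0.0595). With union exonic length the ratio was 2.00 (1.43 to 2.73).

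The gene row of the MIR205 hairpin itself (ENSG00000284485, chromosome 1, 209432133 to 209432242) had 22 Nanopore and 74 Illumina counts. It was the only hairpin row of the 20 with a Nanopore count. MIRLET7A2 had 12 Illumina counts and no Nanopore count, and the other 18 rows were at 0 in both tables. Over all 1877 microRNA gene rows, 5.70% had a Nanopore count and 10.2% an Illumina count. The hairpin row amounted to 55.0% of the MIR205HG count by Nanopore (95% Wilson interval 39.8 to 69.3%) and 0.597% by Illumina (0.476 to 0.748%). The row's Nanopore CPM was 141 times its Illumina CPM (exact interval 83.6 to 230.2, adjusted p = 1.34e-36 in the exact test, adjusted over all tested genes). The size of that difference depended on the length: the log2 ratio (CPM + 1) was 5.33 for CPM, 2.40 with union exonic length (adjusted p = 1.67e-08, exact test) and 3.41 with mean transcript length (adjusted p = 6.21e-15, exact test). The row was low by Illumina (0.386 CPM) and reached the filter through its Nanopore level (54.6 CPM), so these tests are not support for a direction. The tables do not say whether the same reads were counted in both rows, or how reads that cover 2 genes were assigned on either platform. The Wilson intervals of the hairpin row's percentages hold only if its reads are part of the host's.

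The annotation places this hairpin across an exon boundary. In 12 of the 17 annotated MIR205HG transcripts the last exon begins at base 72 of the 110-base hairpin, so that 39 of its bases, from 72 to 110, are exonic and the stretch that holds miR-205-5p (bases 34 to 55) is intronic. No MIR205HG transcript holds the whole hairpin in an exon. A spliced host read that covers the start of this last exon would take in hairpin bases without miR-205-5p, on either platform. How far such reads make up the counts of the row was not tested. The hairpin is shown 5′ to 3′ with the miR-205-5p stretch in capitals, which stands before the exonic part.
MIR205 hairpin: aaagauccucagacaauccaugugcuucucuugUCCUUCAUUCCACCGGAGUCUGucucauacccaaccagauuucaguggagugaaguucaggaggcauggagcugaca

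**Figure D2:**
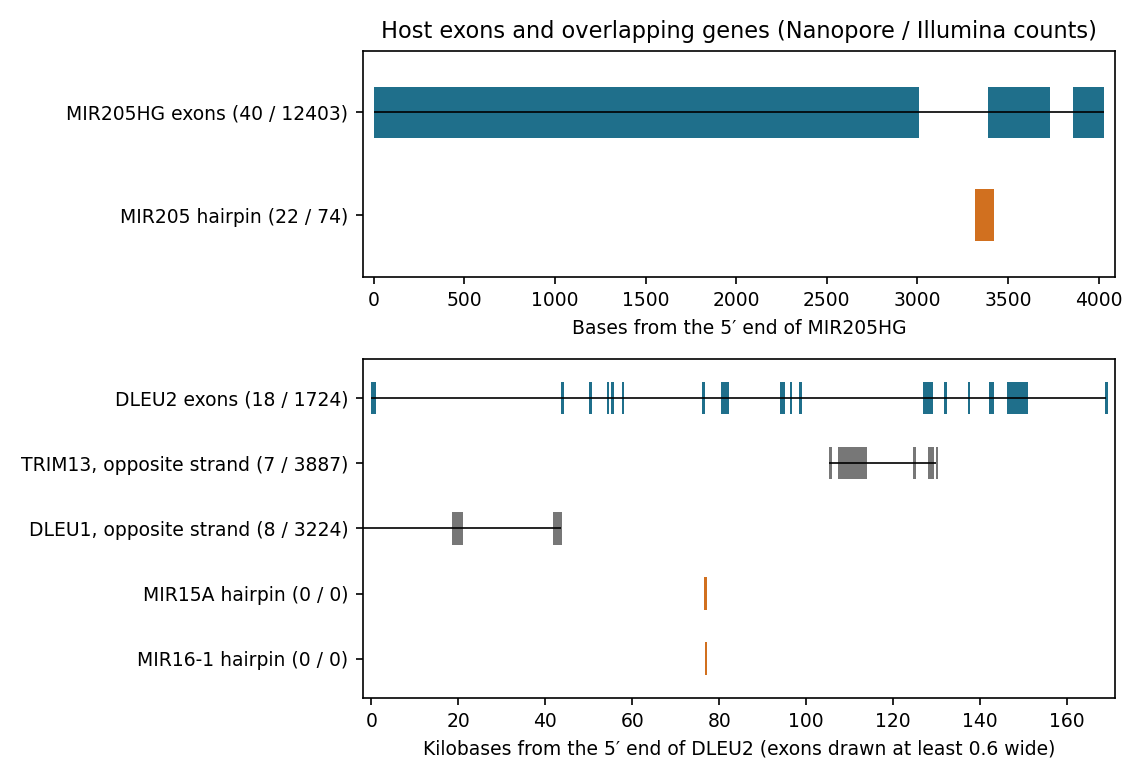
Gene models by distance from the 5′ end of the host (in the lower map, short exons are widened so that they show), with Nanopore and Illumina counts in brackets. Top, the union of MIR205HG exons (blue, in bases) and the MIR205 hairpin (orange), whose 3′ part falls in an exon; bottom, DLEU2 exons (blue, in kilobases), TRIM13 and the part of DLEU1 over DLEU2, on the opposite strand (grey), and the MIR15A and MIR16-1 hairpins (orange).

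MIR200CHG (ENSG00000257084, chromosome 12, 6963226 to 6964447, plus strand, hg38) is the host of miR-200c and miR-141, which target ZEB1 and ZEB2. It had 750 Illumina counts, 3.91 CPM (3.64 to 4.20), and 0 Nanopore counts, where 3 counts would have been 7.44 CPM. At its Illumina share of counts, 1.58 Nanopore counts were expected, so its absence by Nanopore was not informative on the CPM scale. Per length the picture differed, because its 1 annotated transcript has 370 exonic bases. With union exonic length the Illumina level was 28.6 TPM, at which 11.5 Nanopore counts were expected, and the exact interval of the ratio of Nanopore over Illumina reached 0.320 at most (adjusted p = 8.96e-05, exact test, adjusted over all tested genes). With mean transcript length 5.12 were expected (upper bound of the ratio 0.723, adjusted p = 0.0319, exact test). Per length MIR200CHG passed the filter through its Illumina level alone, so neither test is support for a direction. Both hairpins lie in its intron and both rows were at 0 in both tables. It shares no exonic base with another gene. Of its coding neighbours, PTPN6 had 4 Nanopore and 13384 Illumina counts, 9.92 against 69.8 CPM, and PHB2 had 79 and 51010, 195.9 against 266.03 CPM.

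The repressors that these epithelial microRNAs target were detected at few Nanopore counts or none. ZEB1 had 2 Nanopore and 766 Illumina counts, and ZEB2 had 0 and 1496; these 2 genes were singled out after their values were seen. Per union exonic length both were low by Illumina, at 1.25 and 0.808 TPM, below MIR205HG, MIR200CHG, MIR22HG, MIR100HG and DLEU2. The order against MIR200CHG depended on the length: in Illumina CPM, ZEB1 at 3.99 and ZEB2 at 7.80 were not below MIR200CHG at 3.91. The Nanopore counts of ZEB1, ZEB2, MIR200CHG and MIR22HG were too few to order them.

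The MIR100HG locus makes miR-100, let-7a and miR-125b from 3 hairpins that lie in introns of all transcripts. MIR100HG (ENSG00000255248, chromosome 11, 122028325 to 122556721, minus strand, hg38) spans 528397 bases and has 107 annotated transcripts. It had 6 Nanopore counts, 14.9 CPM (6.82 to 32.5), and 4932 Illumina counts, 25.7 CPM (25.01 to 26.5). The ratio of Nanopore over Illumina was 0.578 (exact interval 0.212 to 1.26, adjusted p = 0.323 in the exact test, adjusted over all tested genes), so the libraries could not be told apart for this gene at this depth. Its 30177 union exonic bases are far more than the mean transcript length of 1827, and with union length the direction turned, to 6.45 (2.36 to 14.0, adjusted p = 0.00262), while mean transcript length gave 0.880 (0.323 to 1.92).

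MIR22HG (ENSG00000186594, chromosome 17, 1711447 to 1717174, minus strand, hg38) carries miR-22 in an exon, in 30 of its 32 annotated transcripts. It had 1 Nanopore count, 2.48 CPM (0.438 to 14.0), and 2820 Illumina counts, 14.7 CPM (14.2 to 15.3). At its Illumina share, 5.93 Nanopore counts were expected. The ratio was 0.169 (exact interval 0.00427 to 0.940), and the adjusted p of 0.0734 from the exact test missed the threshold (unadjusted p = 0.0370). The MIR22 row was at 0 in both tables although the hairpin is exonic. WDR81, which lies over the 5′ end of MIR22HG on the other strand without shared exonic bases, had 5 Nanopore and 5771 Illumina counts.

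DLEU2 had the largest ratio of the 4 tested hosts. DLEU2 (ENSG00000231607, chromosome 13, 49956670 to 50125720, minus strand, hg38) is the host of miR-15a and miR-16-1, which restrain BCL2 and G1 cyclins, in a region known for its deletion in chronic lymphocytic leukaemia. It had 18 Nanopore counts, 44.6 CPM (28.2 to 70.6), against 3.63 expected from its 1724 Illumina counts, 8.99 CPM (8.58 to 9.43). The ratio was 4.96 (exact interval 2.94 to 7.87), with an adjusted p of 7.36e-07 in the exact test, adjusted over all tested genes. It was higher by Nanopore with either length too, at 23.5 (13.9 to 37.2) for union and 5.67 (3.35 to 8.99) for mean transcript length.

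DLEU2 also overlaps more genes than any other host: 15, of which 12 are on the opposite strand and 8 have Nanopore counts. Of its exonic bases 9.86% are shared with an exon of another gene, less than the 12.4% of MIR31HG. Where the strand setting of the counting is not stated, reads from overlapping genes cannot be told apart from those of DLEU2. TRIM13, an E3 ubiquitin ligase gene whose exons share 690 bases with DLEU2, had 7 Nanopore and 3887 Illumina counts. DLEU1, a noncoding gene that runs over the 5′ part of DLEU2 with no shared exonic base in release 44, had 8 and 3224; TRIM13 and DLEU1 were named after their values were seen. If every TRIM13 count were also in the DLEU2 count, 11 would be left, a ratio of 3.03 (1.51 to 5.44) that still passed with an exact binomial adjusted p of 0.00758. If the DLEU1 counts were in it as well, 3 would be left, a ratio of 0.827 (0.170 to 2.42) with an exact binomial adjusted p of 1.0. Both settings took counts from Nanopore only and kept the 1724 Illumina counts of DLEU2. The Illumina counts of TRIM13 and of DLEU1 are each larger than that, so the same could not be assumed for Illumina. Other overlapping genes with Nanopore counts, some with exonic bases shared with DLEU2, were left out of both settings. How many of the 18 reads were shared was not tested. The MIR15A hairpin shares its first 13 bases with an exon in 8 of 29 DLEU2 transcripts, and the MIR16-1 hairpin lies in introns; both rows were at 0.

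**Figure D3:**
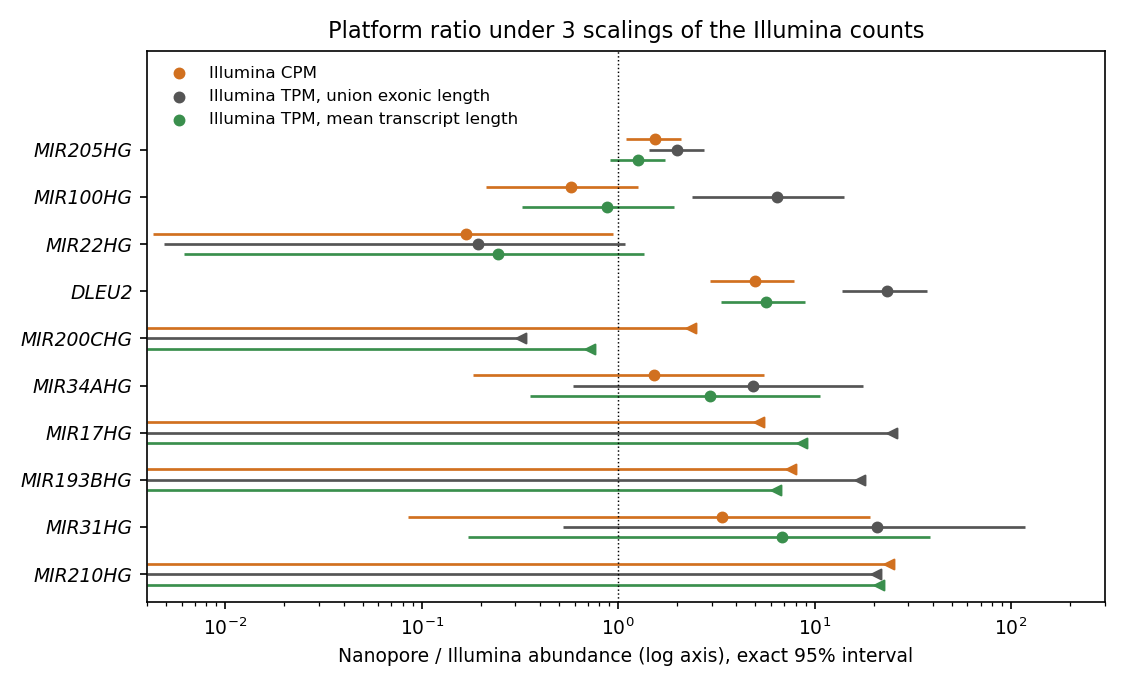
Ratio of Nanopore over Illumina abundance (log axis) for each host with its exact 95% interval, for Illumina CPM (orange), Illumina TPM by union exonic length (grey) and by mean transcript length (green). Left-pointing triangles are upper bounds for the 4 hosts at 0 by Nanopore, and the dotted line marks equal abundance. DLEU2 stays right of the line under all 3 scalings, MIR100HG crosses it, and MIR200CHG lies left of it only per length.

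The hosts of microRNAs tied to p53, proliferation and hypoxia were rare. MIR34AHG (ENSG00000228526, chromosome 1, 9148011 to 9198906, minus strand, hg38) hosts miR-34a, a p53-induced microRNA that targets SNAI1, and had 2 Nanopore counts, 4.96 CPM, and 627 Illumina counts, 3.27 CPM. The ratio was 1.52 with an exact interval of 0.183 to 5.50, which spans equal abundance. LNCTAM34A, on the opposite strand with 431 shared exonic bases, also had 2 Nanopore counts, and 159 by Illumina, so the 2 Nanopore counts of MIR34AHG are uncertain. The MIR34A hairpin is exonic in 1 of 5 transcripts, and its row was at 0.

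MIR17HG (ENSG00000215417, chromosome 13, 91347686 to 91397592, plus strand, hg38) is the MYC-driven host of the miR-17 cluster. It had 0 Nanopore and 340 Illumina counts, 1.77 CPM (1.59 to 1.97), and 0.715 Nanopore counts were expected. Its 6 hairpins are exonic in 3 of 16 transcripts, and all 6 rows were at 0 in both tables. MIR193BHG (ENSG00000262454, chromosome 16, 14301389 to 14331067, plus strand, hg38), host of miR-193b and miR-365a, had 0 and 233 counts, 1.22 CPM by Illumina (1.07 to 1.38). MIR210HG (ENSG00000247095, chromosome 11, 565657 to 568457, minus strand, hg38), host of the hypoxia-induced miR-210, had 0 and 75 counts, 0.391 CPM by Illumina (0.312 to 0.490). For each of these 3 hosts the Illumina level was below the 7.44 CPM that 3 Nanopore counts represent, so a count of 0 there says nothing about their presence.

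MIR31HG (ENSG00000171889, chromosome 9, 21380073 to 21559891, minus strand, hg38) hosts miR-31, which restrains RHOA and integrin alpha 5, in the 9p21 interferon gene cluster. It had 1 Nanopore count, 2.48 CPM, and 140 Illumina counts, 0.730 CPM (0.619 to 0.862), a ratio of 3.40 with an exact interval of 0.0854 to 19.2. The interferon pseudogene IFNWP19, on the opposite strand with 461 shared exonic bases, had 82 Illumina counts and no Nanopore count. IFNE, which lies inside it on the same strand with no shared exonic base, had 1 Nanopore and 63 Illumina counts. Of its coding neighbours, the interferon gene IFNA13, 12016 bases away, was at 0 in both tables, and MTAP, 242745 bases away on the other side, had 0 and 14 counts. MIR31HG was the lowest of the 10 hosts per length, though with mean transcript length its interval overlapped that of MIR210HG. The miR-31 targets RHOA and ITGA5 stood at 308.7 and 165.7 TPM by union exonic length, and a link between host and target levels was not tested.

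**Figure D4:**
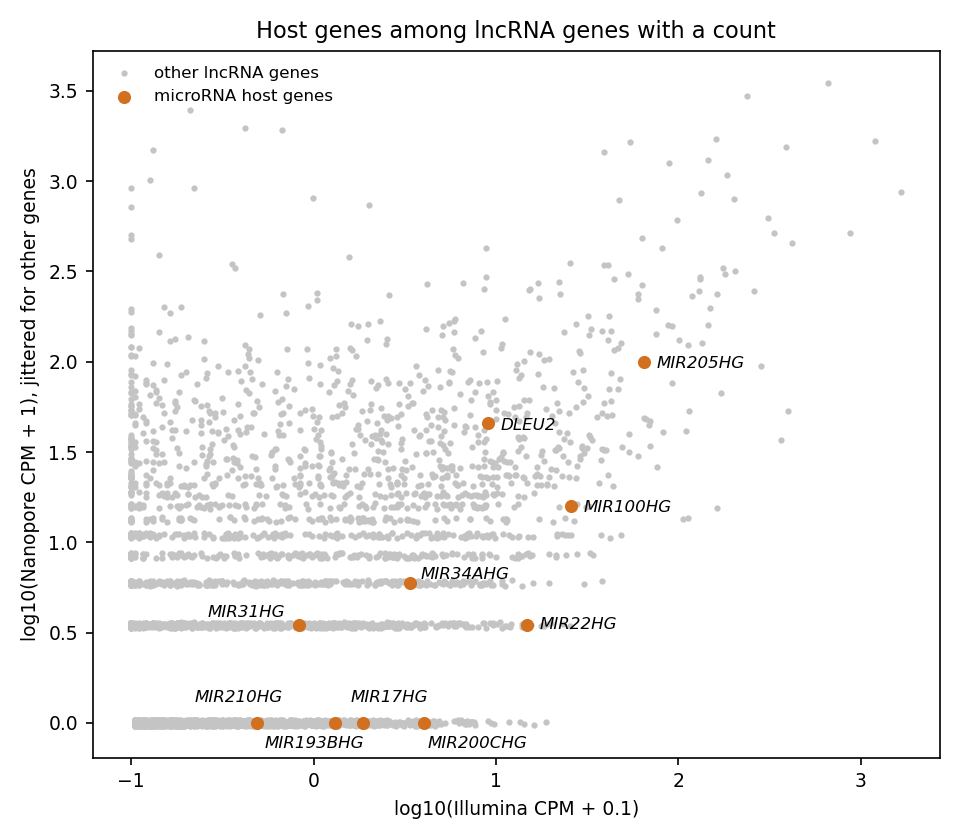
Every lncRNA gene with a count in either library (grey), by log10(Illumina CPM + 0.1) and log10(Nanopore CPM + 1), with the 10 hosts in orange; the other genes are jittered vertically because low Nanopore counts take few values. MIR205HG, DLEU2 and MIR100HG stand above the rows of 1 and 2 Nanopore counts, and 4 hosts lie on the row of 0.

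All 14 genes of a chosen list of microRNA biogenesis factors had at least 1 count on each platform, the fewest for TNRC6C with 1 Nanopore and 1600 Illumina counts, and all 14 were tested: 1 was higher by Nanopore, 8 were higher by Illumina and 5 did not pass, beside 20.2% and 27.2% of all tested genes, with a median log2 ratio of −1.07 beside −0.42. RAN, the GTPase that drives export, had 228 Nanopore and 162150 Illumina counts, and XPO5, the exporter of pre-microRNAs, 13 and 13992. DROSHA, which cuts the primary transcript, had 4 and 11404 counts, 9.92 CPM against 59.5 CPM by Illumina (adjusted p = 6.47e-06, exact test, adjusted over all tested genes), and TARBP2, the partner of DICER1, had 8 and 5624. Per union exonic length 3 of the list passed in the Nanopore direction and 0 in the Illumina direction (background 32.4% and 12.8%), and with mean transcript length 2 and 4 (24.6% and 16.9%), so the balance of calls turned with union length only.

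Among 18 genes known as targets of the hosted microRNAs, 16 were detected by Nanopore and 18 by Illumina. Of the 15 tested, 1 was higher by Nanopore, 10 were higher by Illumina and 4 did not pass, with a median log2 ratio of −1.12; over all tested genes these shares were 20.2% and 27.2%. The most abundant per length were SNAI1 (286 and 164973 counts), RHOA (180 and 104998), ITGA5 (33 and 86597) and CCND1 (15 and 33140), and the SNAI1 count can include the Snail construct. Per union exonic length 3 passed in the Nanopore direction and 5 in the Illumina direction (background 32.4% and 12.8%), and with mean transcript length 1 and 2 (24.6% and 16.9%). No untreated library was analysed here, so these levels show no change of a target with its microRNA host.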

How the data were processed

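Gene counts of 1 Nanopore direct RNA library and 1 Illumina mRNA library were used, 1 library per group as titled in the labels. The authors deposited whole-number counts per Ensembl gene, without normalization. The submitters' processing notes list minimap2 2.11-r797, HISAT2 2.1.0, featureCounts and the build hg38; options, strand setting, annotation release and the treatment of reads over several genes are not given in the sources used here. Depending on these settings, the counts of genes that overlap others could be raised or lowered.

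From the counts, CPM, exact conditional binomial tests, exact intervals of ratios and 95% Wilson intervals were computed (Python 3.11.15, scipy 1.17.1); with 1 library a group no replicate-based model such as that of edgeR was fitted. Log2 ratios used a pseudocount of 1 CPM. The test was tested on simulated data. Symbols, exons and lengths came from GENCODE release 44 (hg38), in which 58207 of 58735 identifiers were found, and microRNA sequences from RefSeq. TMM factors came from edgeR 4.0.16. The alternatives were other scalings, filters, pseudocounts, lengths and detection limits. The rule for named genes took all 10 hosts, their 20 hairpin rows, overlapping genes with at least 50% of a host's Nanopore count, and the most abundant genes per length of each list. The hosts and lists were chosen with earlier results of these data known.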

Additional observations from a re-analysis of the deposited data

How the results depend on the processing

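No paired analysis was possible because each platform has 1 library and the labels carry no replicate numbers. The 2 hosts higher by Nanopore became 1 without a filter and 1 with division of the Illumina counts by mean transcript length. They also became 1 when the TRIM13 and DLEU1 counts were taken from DLEU2 in the Nanopore library only, an alternative chosen after seeing the data. The 0 hosts higher by Illumina became 1, MIR200CHG, with either length, where it passed the filter through Illumina alone. The 2 tested hosts not past the threshold became 5 with a mean of at least 1 CPM, 1 at 10 CPM, 9 without a filter, where more or fewer hosts are tested, and 1 with union exonic length. Hosts detected by Nanopore were 3 at 3 counts and 2 at 10 counts, and all 10 were detected by Illumina at either minimum. The median log2 ratio of the hosts, −0.61 as reported, was −1.54 with a pseudocount of 0.1 CPM and turned to 0.26 with union exonic length. The share held by the hosts without MIR205HG was 0.00694% by Nanopore and 0.00607% by Illumina, and the Illumina share was 0.0133% without mitochondrial genes in the total. The direction turned for MIR100HG with union exonic length (log2 ratio 2.26, adjusted p = 0.00262, exact binomial test). It also turned for DLEU2 less the Nanopore counts of TRIM13 and DLEU1, with its Illumina count kept (−0.24). TMM and median-ratio scaling raised ratios by 0.088 and 0.13 on the log2 scale and changed no call of a host. The Nanopore depth limits 6 of the 10 hosts, whose Illumina share would leave at least 20.7% of Poisson samples of that depth without a count.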

Other observations

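The tables hold 74 other genes named as microRNA hosts (symbols of the form MIR...HG in GENCODE release 44). Of these, 19 had a Nanopore count, 33 had an Illumina count and 39 were at 0 in both. In all, 12 were tested, of which 7 were higher by Nanopore, 0 higher by Illumina and 5 not past the threshold by the exact binomial test, while 73.2% of tested lncRNA genes and 20.2% of all tested genes were higher by Nanopore. For MIR302CHG, MIR762HG, MIRLET7BHG, MIR3936HG and MIR4300HG the Illumina levels were 2.14, 1.99, 1.91, 1.14 and 0.0261 CPM. These hosts passed the 5 CPM filter through their Nanopore level. The remaining hosts called, MIR497HG and MIR4435-2HG, were above 5 CPM by Illumina too, at 27.4 and 41.5 CPM. The filter acts on all lncRNA genes alike, so neither the count nor the lncRNA share is support for a shared direction. The most abundant of the 74 per union exonic length was MIR497HG, host of miR-497 and miR-195, with 23 Nanopore and 5254 Illumina counts (19.3 TPM). On this Illumina scale MIR205HG and MIR200CHG lay above all 74. By Nanopore they did not: MIR4300HG, named after its values were seen, had 417 counts, 1034 CPM, against 5 Illumina counts, 0.0261 CPM, and MIR200CHG had no Nanopore count. MIR1915HG had 3 and 1746 counts, MIR222HG, 5 and 1140, MIR4458HG 8 and 2316, and MIR4435-2HG 28 and 7953.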
